A study of Mus musculus with 10 samples.

Results

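The lymphotoxin and tumor necrosis factor (TNF) ligands and their receptors were followed here in mouse spermatogonia on 10 single-color Agilent arrays. The 7 genes were *Ltb*, *Lta*, *Tnf* and *Tnfsf14*, which encode ligands, and *Ltbr*, *Tnfrsf1a* and *Tnfrsf1b*, which encode receptors. They were picked because the *Ltb* signal was higher in cultured spermatogonia that received FGF5, so that comparison is described below without a test. Probes were taken where the gene name of the array design equaled one of these symbols, which gave 8 probes of 55681 non-control probes, with 2 probes for *Tnfrsf1a* and 1 for each of the others.

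The cultured cells were germline stem (GS) cells, spermatogonia that self-renew in culture, labeled wild-type and C57BL/6. According to the methods of the study they came from C57BL/6 x ICR intercrossed mice, were kept without FGF2 and GDNF for 3 days and were then given FGF5 at 100 ng/ml or no FGF5 for 24 hours, with 2 samples per condition. The sorted cells were the GFP+ fraction from testes of adult C57BL/6 mice aged 2.5 months, all carrying a GFP knock-in at *Gfra1*, either wild type (WT) for *Fgf5* or *Fgf5*-/- (the go-moja allele), with 3 samples per genotype. GFRα1+ spermatogonia are the fraction of undifferentiated spermatogonia that holds the stem cells. The *Fgf5*-/- mice carry the allele in all cells, whereas the cultured cells were first deprived of FGF2 and GDNF. The number of mice behind each sorted sample is not given in the sources used here, nor is whether the cultures came from more than 1 GS cell line. P-values therefore measure the spread between these samples. The 4 culture arrays shared 1 slide and the 6 sorted arrays another, so that material, slide and scan cannot be told apart in any comparison of cultured with sorted cells.

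Signals are given on the log2 scale after subtraction of each array's 75th percentile, so that 0 is the signal of the spot at that rank. A probe was taken as measured on an array where the scanner software marked more than 0.5 of its spots as well above background. Between 55.3% and 65.9% of probes were measured per array, no spot was saturated, and arrays of one group correlated at 0.968 to 0.982. All 13 markers of undifferentiated spermatogonia were measured on every array, though the levels of some differed between the groups, as given below. The probe of the targeted gene *Fgf5* was measured on every culture array, at -3.92 to -2.89 with FGF5 and -2.88 to -2.81 without. The untreated cultures thus lacked added FGF5 but not signal at this probe. Among the sorted arrays the *Fgf5* probe was measured on 0 of 3 WT arrays and on 1 of 3 arrays labeled *Fgf5*-/-, replicate 1, at -3.42. Because it was at background in WT cells, and its place relative to the mutation is not given in the sources used here, the probe does not check the genotype labels, and results in the sorted cells are also given without that array.

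Lymphotoxin beta, the product of *Ltb*, is a transmembrane protein that holds lymphotoxin alpha, the product of *Lta*, at the cell surface. The joint complex binds the lymphotoxin beta receptor, *Ltbr*, which also binds LIGHT, the product of *Tnfsf14*. Secreted lymphotoxin alpha and TNF instead bind the receptors encoded by *Tnfrsf1a* and *Tnfrsf1b*. These receptors recruit TRAF adaptors and activate the transcription factor NF-kB, and the pathway is best known for the formation of lymphoid organs and for inflammation. *Ltb*, *Tnf* and *Lta* lie side by side in the major histocompatibility complex on chromosome 17, in the order *Lst1*, *Ltb*, *Tnf*, *Lta*, *Nfkbil1* by the positions of their probes.

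The 250 bases before the annotated start of these 3 neighboring genes are shown because only 1 of them, *Ltb*, was 2-fold apart with FGF5. They are RefSeq sequences of GRCm38.p6, written from 5′ to 3′ on the strand of the gene, with matches to 3 motifs in capitals:
Ltb, chr17:35194257-35194506, plus strand: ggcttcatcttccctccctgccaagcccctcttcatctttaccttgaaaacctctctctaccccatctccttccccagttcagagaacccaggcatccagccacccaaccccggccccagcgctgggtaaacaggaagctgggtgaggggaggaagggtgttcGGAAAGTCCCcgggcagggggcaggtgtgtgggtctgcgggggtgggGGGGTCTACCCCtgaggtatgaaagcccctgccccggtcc
Tnf, chr17:35202008-35202257, minus strand: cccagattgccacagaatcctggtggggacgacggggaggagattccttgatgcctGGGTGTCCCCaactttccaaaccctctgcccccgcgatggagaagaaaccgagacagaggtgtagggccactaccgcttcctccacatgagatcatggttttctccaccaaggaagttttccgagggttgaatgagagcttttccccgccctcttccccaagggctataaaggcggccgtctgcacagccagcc
Lta, chr17:35205352-35205601, minus strand: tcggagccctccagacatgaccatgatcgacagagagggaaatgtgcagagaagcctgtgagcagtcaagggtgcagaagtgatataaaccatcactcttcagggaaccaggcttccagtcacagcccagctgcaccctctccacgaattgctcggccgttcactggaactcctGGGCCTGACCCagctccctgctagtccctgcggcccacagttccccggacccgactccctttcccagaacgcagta
The motifs searched on both strands were GGG, any 5 bases and CC for NF-kB, TGANTCA for AP-1 and CCGGAA for ETS factors, 3 kinds of factor that respond to cytokine or growth factor signals. *Ltb* held 4 matches to the NF-kB letters, 1 from base 87 to base 78 before the start and 3 that overlap one another between bases 40 and 29. *Lta* held 2 overlapping matches and *Tnf* held 1, and none of the 3 windows held the AP-1 or ETS letters as searched. Other or shorter forms of these motifs were not searched, so the absence of such sites was not shown. Each of the other 4 genes also had at least 1 match to the NF-kB letters. Of 32851 mouse promoters cut to the same window, 45.8% held the NF-kB letters, 6.75% the AP-1 letters and 12% the ETS letters, so the NF-kB letters are common and a match is a description of the sequence only.

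*Ltb* was bright in sorted cells, intermediate in cultured cells with FGF5 and dim in cultured cells without it. Its single probe (NM_008518, chr17:35333097-35333156 in mm9) was measured on all 10 arrays. With FGF5 its log2 signals were -1.13 and -0.19, and without FGF5 they were -4 and -3.48. The lower FGF5-treated culture thus lay well above both untreated cultures. The means were -0.66 ± 0.66 (SD, n = 2) and -3.74 ± 0.36 (SD, n = 2), a difference of 3.08 or 8.45-fold. This difference ranked 20th from the highest among 34608 probes that passed the background filter. With background correction by normexp, which lifts dim signals, it was 2.09, or 4.27-fold. In bulk samples such as these, fewer cells of a type and less RNA per cell cannot be told apart.

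**Figure D1:**
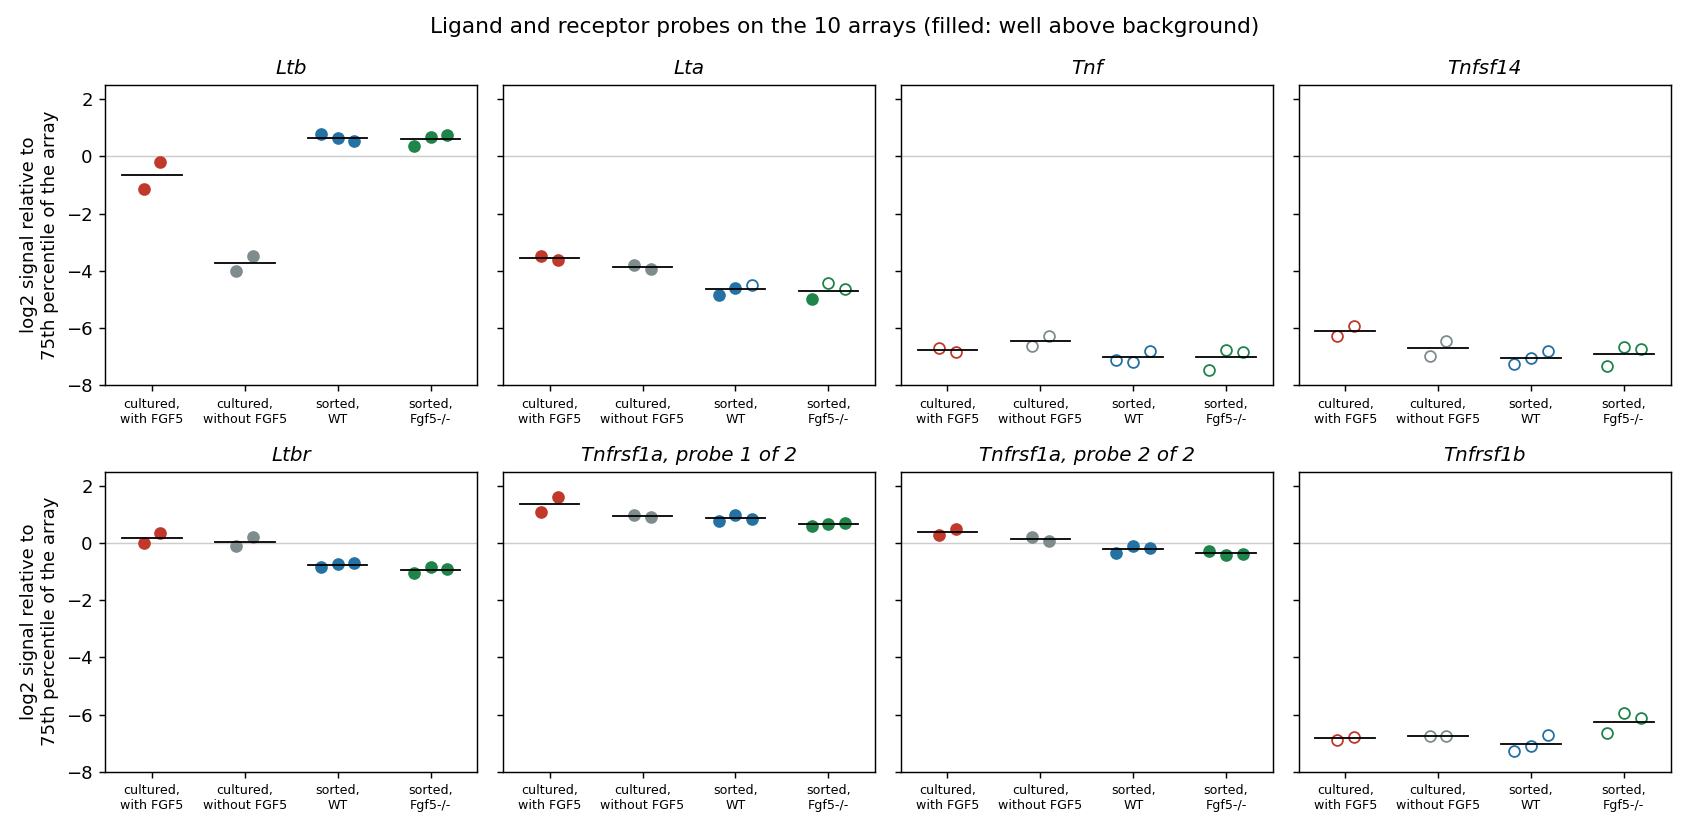
Log2 signal of each of the 8 probes after subtraction of its array's 75th percentile, by group; a point is 1 array, filled where the probe was well above background, and the black line is the group mean. *Ltb* spans from -4 to 0.77 over the arrays, while *Ltbr* and both *Tnfrsf1a* probes stay between -1.04 and 1.61 and *Tnf*, *Tnfsf14* and *Tnfrsf1b* are open points on all 10 arrays.

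Among the 8 probes, *Ltb* was the only one at least 2-fold higher with FGF5 with no overlap of the arrays, and none was 2-fold lower. Over all tested probes 0.751% were that far higher and 0.387% that far lower, and since the genes were chosen from this contrast nothing is read from the count. Arrays did not overlap for 4 of the 5 probes that passed the filter, beside 22.8% of all tested probes.

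*Lta*, the partner of *Ltb* in the membrane complex, was dim but measured in culture. Its probe (NM_010735, chr17:35340275-35340334 in mm9) is printed 10 times per array, and all 10 spots were well above background on each culture array. The log2 signals were -3.50 and -3.62 with FGF5 and -3.81 and -3.95 without, which do not overlap. The difference of 0.32, or 1.25-fold, was 0.12 with normexp and was 0.41 after quantile normalization. The size thus depended on the background correction.

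*Tnf* and *Tnfsf14* were at background in all 4 groups. The *Tnf* probe (NM_013693, chr17:35336795-35336854 in mm9) is also printed 10 times, and at most 1 of its 10 spots was well above background on any array, each time a spot left out as an outlier. Its signals ran from -7.48 to -6.29 over the 10 arrays. *Tnfsf14* (NM_019418, chr17:57329192-57329251 in mm9) ran from -7.35 to -5.94, with its 2 highest signals in the FGF5-treated cultures. Neither probe was well above background on any array, so no fold is given.

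**Figure D2:**
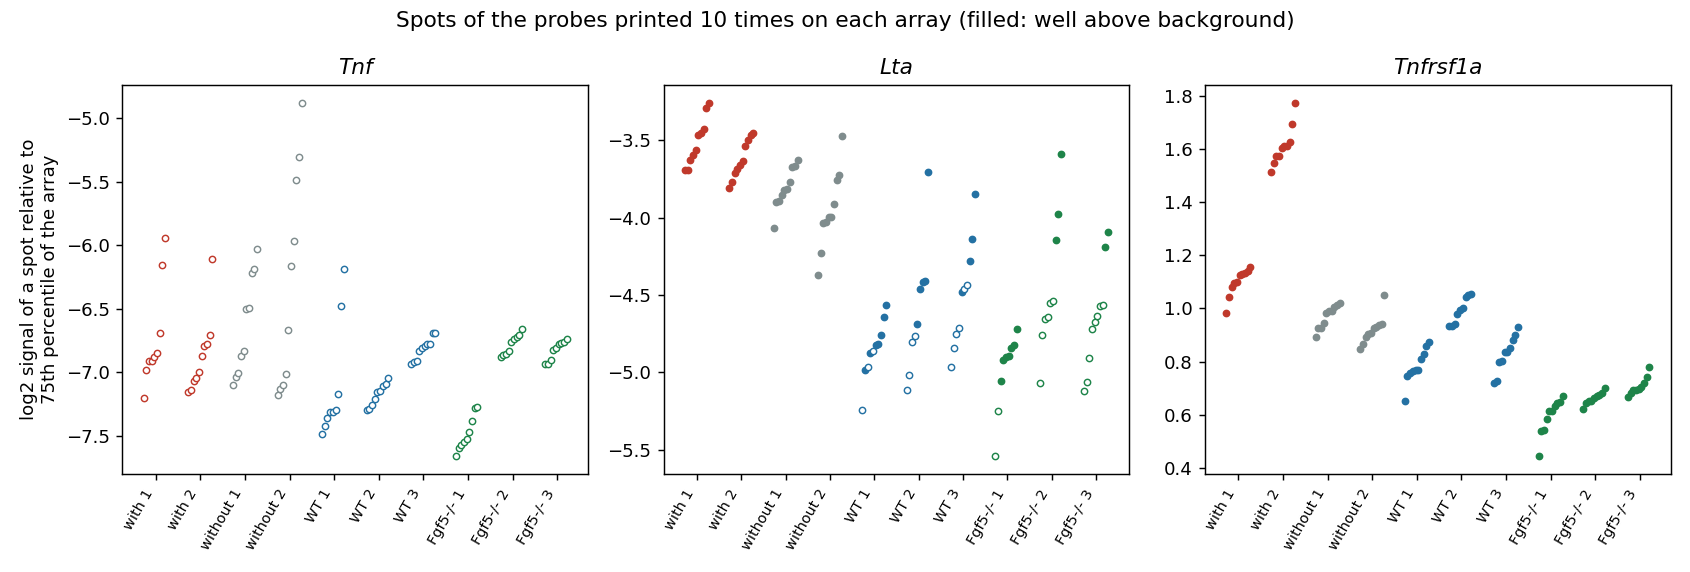
Log2 signal of each spot, on the same scale, for the *Tnf*, *Lta* and *Tnfrsf1a* probes that are printed 10 times; the spots of an array stand side by side from lowest to highest, the vertical scales differ, and filled points are well above background. The *Tnf* spots shown are all open, the *Lta* spots are filled on the culture arrays and mixed on the sorted arrays, and the *Tnfrsf1a* spots are all filled.

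The receptors *Ltbr* and *Tnfrsf1a* were measured on every array, between -1.04 and 1.61. *Ltbr* (NM_010736, chr6:125256614-125256673 in mm9) had log2 signals of 0.02 and 0.35 with FGF5 and -0.11 and 0.22 without. These pairs overlap, and the difference of 0.13 was smaller than the spread within each pair. *Tnfrsf1a* (NM_011609), the main receptor for TNF and soluble lymphotoxin alpha, had signals of 1.1 and 1.61 with FGF5 and 0.97 and 0.92 without at the probe printed 10 times (chr6:125312376-125312435 in mm9). The FGF5-treated cultures were both higher, by 0.41 in the mean or 1.33-fold, most of it from 1 array. Its second probe (chr6:125311922-125311981 in mm9) read 0.27 and 0.50 with FGF5 and 0.23 and 0.07 without, a difference of 0.23 in the same direction. *Tnfrsf1b* (chr4:144802359-144802418 in mm9), the second TNF receptor, was at background on all 10 arrays, at -7.26 to -5.96.

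No neighbor of *Ltb* on the chromosome that passed the filter was 2-fold apart without overlap. Within 100000 bases on either side of the *Ltb* probe lay 27 other probes of 21 gene names, of which 23 passed the filter in culture. Their differences with FGF5 ran from -0.41 to 0.32, the highest being *Lta*. *Nfkbil1*, next to *Lta*, was 0.28 and the 2 *Lst1* probes were 0.17 and -0.01. *Aif1*, a macrophage gene, differed by 1.79 but was well above background on 1 of the 2 arrays with FGF5 and on neither without it, so it did not pass the filter.

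**Figure D3:**
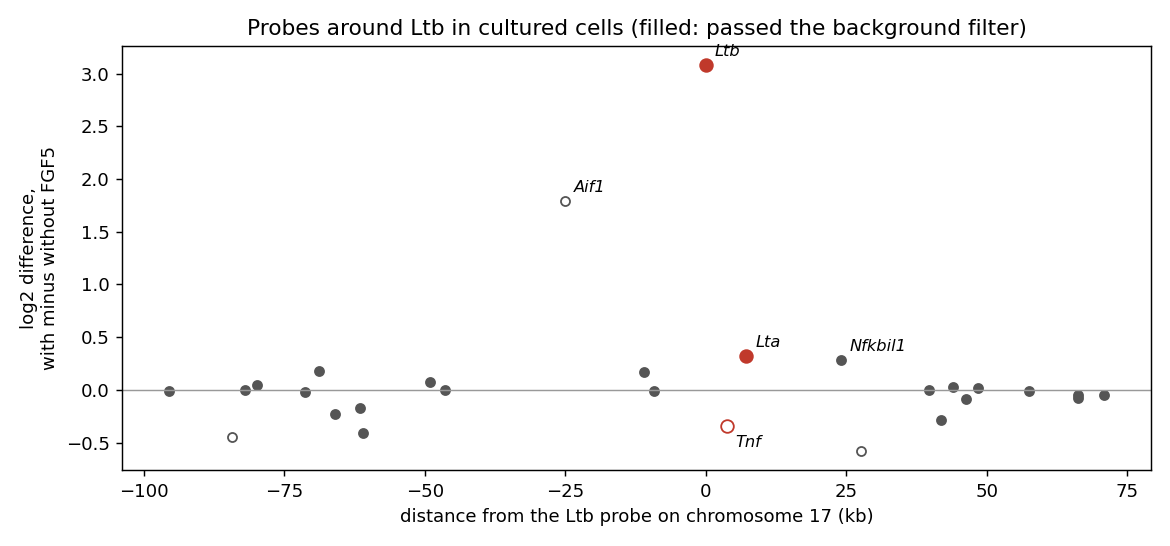
Difference in log2 signal between cultures with and without FGF5 against the distance in kilobases from the *Ltb* probe on chromosome 17; each point is a probe, red for *Ltb*, *Tnf* and *Lta*, filled where it passed the background filter. *Ltb* stands at 3.08 and the 23 other filled points lie between -0.41 and 0.32.

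Of 76 other pathway genes in 6 lists that passed the filter in culture, 3 or 3.95% were measured 2-fold apart without overlap, all higher with FGF5, beside the shares over all probes given above. The genes belong to the contrast that chose *Ltb*, and nothing is read from the count. Of 7 other TNF ligands that passed the filter none was 2-fold apart without overlap, and the same held for 25 receptor adaptors and regulators, 13 NF-kB subunits, inhibitors and kinases and 8 NF-kB target cytokines, chemokines and adhesion molecules. In these lists the medians were -0.10, 0.00, 0.09 and 0.03, against -0.03 over all tested probes. Of 15 other TNF receptors, *Tnfrsf25*, the receptor for TL1A, was higher by 1.72 or 3.3-fold. *Cd40* was at background without FGF5, so that its measured difference of 1.06 gives only a bound of at least 1.78-fold. *Zfp36*, which encodes tristetraprolin, a protein that speeds the decay of *Tnf* mRNA, was 1 of 8 genes of TNF shedding and mRNA decay and was higher by 1.26 or 2.39-fold.

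The next genes by size did not reach 2-fold without overlap. *Icam1*, an adhesion molecule induced by NF-kB, was at background without FGF5 and at least 1.63-fold higher with it. *Ngfr*, the low-affinity neurotrophin receptor, was higher by 0.99, with overlapping arrays. *Tnfsf9* was higher by 0.44, *Traf4* by 0.41 and *Rhbdf1*, which regulates the shedding protease of TNF, by 0.39. *Cd70* differed by -0.77, *Fasl* by -0.55, *Tnfrsf13c* by -0.53 and *Traf5* by -0.41. Of these last 4, the arrays of *Tnfrsf13c*, the receptor for BAFF, did not overlap.

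Because *Ltb*, *Lta* and *Tnf* are known from lymphocytes and macrophages, markers of those cells were read from the same arrays. Of 13 lymphocyte markers, 7 to 8 were well above background per array with FGF5 and 7 without, and none of the 7 that passed the filter was 2-fold apart without overlap. Their mean log2 signal ran from -3.73 to -3.59 with FGF5 and from -3.64 to -3.44 without. *Cd79b*, the B cell receptor chain, and *Il7r* were at background on all 10 arrays, and the T cell receptor chains *Cd3g* and *Cd3d* were each measured on 1 array of 10. *Cd3e*, *Cd2*, *Lck*, *Cd79a* and *Nkg7* were measured on every array.

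One macrophage marker was also higher with FGF5. *Mrc1*, the mannose receptor of macrophages, read -3.75 and -2.43 with FGF5, against -7.09 and -7.02 without, where it was at background, and was at least 3.47-fold higher. It was the only one of the 7 macrophage markers that passed the filter to be 2-fold apart. *Csf1r*, *Cd68*, *Cd14*, *Itgam* and *C1qb* were measured on every array, while *Lyz2*, *Fcgr1* and *Cd163* were on none. The mean over the 11 markers, *Mrc1* among them, was -2.90 to -2.82 with FGF5 and -3.13 to -3.02 without. Of the macrophage markers measured on every array, *Csf1r* and *Cd68* had higher means with FGF5, and *Cd14*, *Itgam* and *C1qb* lower. Sertoli cell markers were higher with FGF5 in the median, by 0.50 over the 5 of 8 that passed the filter, against -0.03 over all tested probes. Arrays did not overlap for 3 of the 5, *Clu* at 0.61, *Rhox5* at 0.50 and *Wt1* at 0.15, beside 22.8% of all tested probes. None of the 3 was 2-fold apart. *Sox9* differed by 0.73 with overlap, and *Gata4* went the other way, with means of -3 with FGF5 and -2.92 without. *Amh* and *Fshr* were at background on all 10 arrays. The mean signal over the 8 Sertoli cell markers was -3.38 to -3.15 with FGF5 and -3.60 to -3.31 without. Of 13 markers of undifferentiated spermatogonia, 2 were at least 2-fold higher with FGF5 without overlap and 0 lower. The shares over all tested probes were 0.751% and 0.387%. Their median difference was -0.07. *Etv5* had means of 3.68 with FGF5 and -0.24 without, *Gfra1* of -1.52 and -3.08, and *Ret* of 0.35 and -1.09. The part of these cell types in the *Ltb* difference was not tested.

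In sorted GFRα1+ cells *Ltb* did not differ detectably between the genotypes. The comparison asks whether the signal depends on *Fgf5* in the animal. The log2 signals were 0.77, 0.64 and 0.55 in WT and 0.37, 0.68 and 0.75 in cells labeled *Fgf5*-/-. The ranges overlap, with the lowest *Fgf5*-/- array below all WT arrays. The difference was -0.05 ± 0.14 (SE, 95% interval -0.39 to 0.28, limma adjusted p = 0.924). Without the *Fgf5*-/- array that read *Fgf5* above background, it was 0.06 (limma adjusted p = 0.853).

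No receptor passed the threshold between the genotypes. *Ltbr* read -0.84, -0.74 and -0.70 in WT and -1.04, -0.83 and -0.91 in *Fgf5*-/-. The difference of -0.17 had a 95% interval of -0.43 to 0.09 (limma adjusted p = 0.762), and the arrays overlap by a small margin. *Tnfrsf1a* read 0.78, 0.99 and 0.83 in WT and 0.59, 0.66 and 0.71 in *Fgf5*-/- at the probe printed 10 times. These arrays did not overlap, and the difference was -0.21 (95% interval -0.47 to 0.04, limma adjusted p = 0.741). At the second *Tnfrsf1a* probe it was -0.16 (95% interval -0.42 to 0.11, limma adjusted p = 0.765), with overlap. Without the array that read *Fgf5* above background, the differences were -0.11, -0.18 and -0.21 in the same order (limma adjusted p = 0.698, 0.623 and 0.597).

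By limma with Benjamini-Hochberg adjustment none of the 4 probes tested was called, none had an unadjusted p under 0.05, and 0% of the 30282 probes tested in all passed, with 2047 at an unadjusted p under 0.05. Arrays did not overlap for 1 of the 4, beside 16.2% of all tested probes. The other 4 probes did not pass the filter. *Lta* was well above background on 2 of 3 WT arrays and 1 of 3 *Fgf5*-/- arrays, with signals of -4.85, -4.60 and -4.49 in WT and -4.99, -4.44 and -4.65 in *Fgf5*-/-, which overlap. *Tnfrsf1b* read -7.26, -7.10 and -6.73 in WT and -6.66, -5.96 and -6.13 in *Fgf5*-/-. These do not overlap, but the probe was at background on all 6 arrays.

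No gene of the wider pathway or of the chromosomal neighbors of *Ltb* passed the test between the genotypes. Over 6 pathway lists and the list of chromosomal neighbors, 82 of 115 genes on the array passed the filter. Of the 82 genes 0 were called by limma and 2 had an unadjusted p under 0.05. These were *Tnfrsf4*, the OX40 receptor, at 0.42, and *Apom*, an apolipoprotein gene near *Ltb*, at 0.27, with limma adjusted p = 0.729 for both. Differences over the 82 genes ran from -0.68 for *Tnfrsf14*, the receptor for LIGHT, to 0.76 for *Aif1*, a chromosomal neighbor. Between these lay *Timp3*, an inhibitor of the TNF shedding protease, at -0.47, the chemokines *Cxcl10* at -0.40 and *Ccl5* at -0.38, the NF-kB regulator *Nfkbiz* at 0.38, *Tnfrsf19* at 0.34, *Tnfsf12* at -0.31, *Casp8* at 0.28 and *Ngfr* at -0.27. Of 13 lymphocyte markers, 6 to 7 were well above background per WT array and 7 to 8 per *Fgf5*-/- array, and of 11 macrophage markers 6 to 7 and 6 to 8. Their mean signals ran from -3.79 to -3.69 in WT and -4.02 to -3.37 in *Fgf5*-/- for lymphocytes, and from -3.42 to -2.88 and -3.41 to -2.90 for macrophages. Of 2 Leydig cell markers tested, *Cyp17a1* was at least 2-fold lower in *Fgf5*-/- without overlap. Of 6 fibroblast markers tested, *Col3a1*, well above background on 1 of 3 WT arrays, was at least 2-fold higher. Of 5 Sertoli cell markers tested 0 were that far apart without overlap, and limma called none in these lists.

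**Figure D4:**
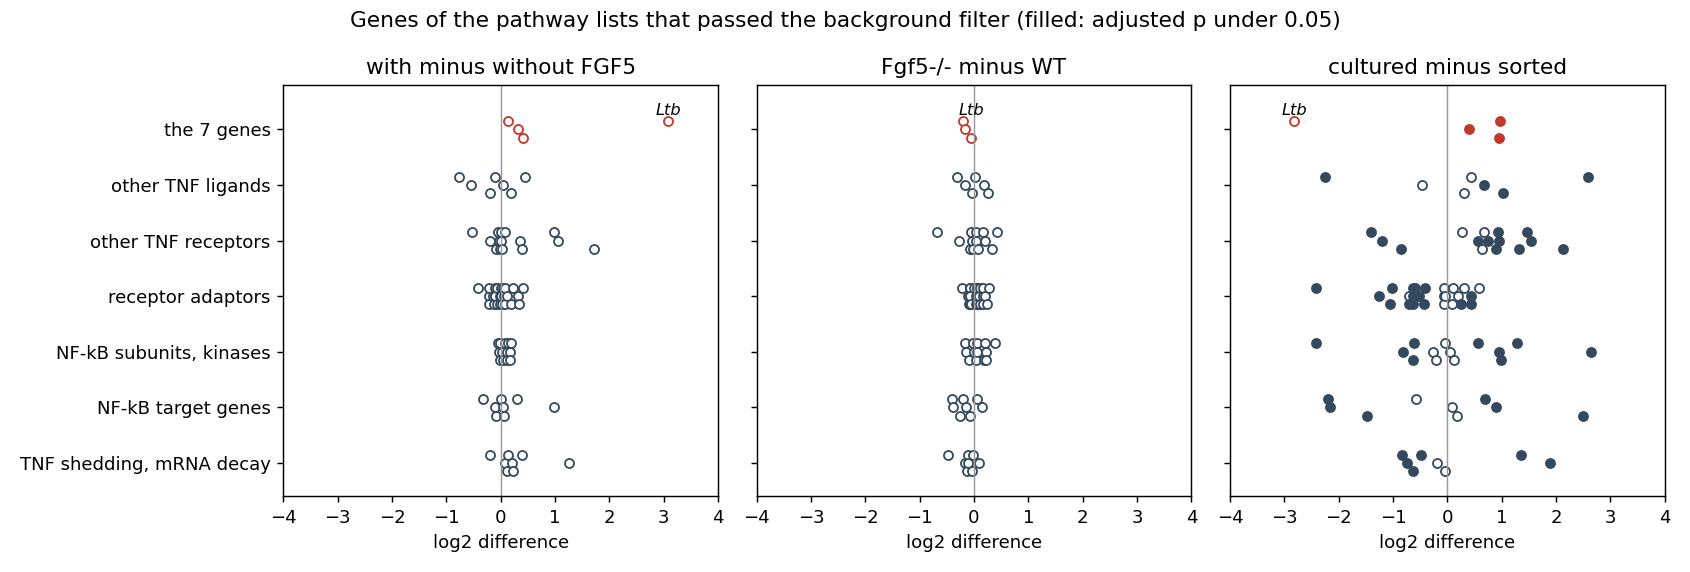
Differences in log2 signal for the genes of each list that passed the background filter, 1 point a gene at its brightest probe, in 3 comparisons; filled points had a limma adjusted p under 0.05, and *Ltb* and the culture contrast carry no test. *Ltb* is at 3.08, -0.05 and -2.82 from left to right, and no point is filled between the genotypes.

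Cultured and sorted cells differed most in *Ltb* among the 7 genes. Averaged over its 2 groups, the *Ltb* signal was -2.20 in cultured and 0.63 in sorted cells, a difference of -2.82 that is given without a test. Cultures with FGF5 were 2.48-fold below sorted WT cells and cultures without FGF5 21-fold below. The order of the groups was sorted WT, sorted *Fgf5*-/-, cultured with FGF5 and cultured without FGF5. Only the 2 sorted groups, neighbors in this order, overlapped. With normexp the difference between cultured and sorted cells was -2.19.

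*Ltbr* and *Lta* were instead higher in culture, each by just under 2-fold. *Ltbr* was higher in all 4 cultured than in all 6 sorted samples, by 0.97 or 1.95-fold (95% interval 0.70 to 1.23, limma adjusted p = 0.000137). *Lta* was higher by 0.95 or 1.93-fold (95% interval 0.64 to 1.26, limma adjusted p = 0.000371), again with no overlap. The *Lta* probe was measured on all 4 culture arrays but on only 3 of 6 sorted arrays, so it passed the filter only through the cultures, where it was higher, and the difference sits near the background. With no filter the limma adjusted p was 0.00111, and after quantile normalization the difference was 0.44 (limma adjusted p = 0.0652). For *Lta* the cultured and sorted groups thus stood in the reverse order to *Ltb*.

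*Tnfrsf1a* was higher in culture by 0.39 (95% interval 0.12 to 0.66, limma adjusted p = 0.0186) at the probe printed 10 times and by 0.54 (95% interval 0.31 to 0.78, limma adjusted p = 0.00154) at the second. Both lost their call where the cultures without FGF5 alone were set against sorted WT cells, at 0.08 (limma adjusted p = 0.715) and 0.35 (limma adjusted p = 0.0661). At the first probe leaving out the second FGF5 culture or the first culture without FGF5 gave limma adjusted p = 0.0616 and 0.0564. The median over all tested probes was 0.26 in this comparison, and quantile normalization moved it to 0.13.

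Of the 4 probes tested besides *Ltb*, *Lta* among them, 4 had an adjusted p under 0.05, beside 67.6% of all tested probes, and the count is a description only. None was also 2-fold apart, where 24.3% of all tested probes were called at least 2-fold higher in culture and 10.5% at least 2-fold lower. Of all those calls 69.9% were higher in culture, and 55.2% after quantile normalization. *Tnf*, *Tnfsf14* and *Tnfrsf1b* were at background on all arrays of both materials.

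Of 78 other pathway genes tested between the materials 66.7% were called, beside 67.6% of all probes. The calls include *Rel*, *Ccl2*, *Bcl3* and *Cxcl10*, which passed the filter only through groups where they were higher. The counts are therefore a description only. Of 7 other TNF ligands tested 3 were higher and 1 lower in culture by limma, of 15 other receptors 9 and 3, of 25 adaptors and regulators 3 and 12, of 14 NF-kB subunits, inhibitors and kinases 5 and 4, of 9 NF-kB target genes 3 and 3, and of 8 genes of TNF shedding and mRNA decay 2 and 4. The medians of these lists were 0.43, 0.75, -0.42, 0.00, 0.08 and -0.34, against the median of 0.26 over all probes.

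Genes that rose most in culture included a ligand, receptors and a chemokine. *Fasl*, the ligand of the death receptor Fas, was 5.96-fold higher (limma adjusted p = 4.6e-05). *Tnfrsf14*, the receptor that *Ltb*'s relative LIGHT also binds, was 4.39-fold higher and *Tnfrsf10b*, a TRAIL receptor, 2.91-fold. *Ccl2*, a monocyte chemokine, was 5.67-fold higher and was measured on 2 of 6 sorted arrays. *Rel*, an NF-kB subunit of lymphocytes, was at background in all sorted samples and at least 1.59-fold higher in culture. It passed the filter only through the cultures, where it was higher, so no p is given. *Rhbdf1* was 3.67-fold higher, and *Lst1*, the gene next to *Ltb*, was 3.22-fold higher at its brighter probe and lower by 0.66 on the log2 scale at its other probe.

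Other pathway genes were lower in culture, as *Ltb* was. *Cflar*, an inhibitor of death receptor signaling, was 5.33-fold lower (limma adjusted p = 6.06e-06) and *Bcl3*, a nuclear partner of NF-kB, 5.35-fold lower. *Cd70*, a TNF-family ligand of lymphocytes, was 4.74-fold lower. The NF-kB targets *Icam1* and *Cxcl10* were 4.6-fold and 4.48-fold lower. *Bcl3* and *Icam1* were measured on 2 of the 4 culture arrays and *Cxcl10* on 1.

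Markers of other cells also differed between the materials. Of 7 lymphocyte markers tested 2 were higher in culture and 2 lower by limma, *Cd3e* being higher by 1.35, and of 7 macrophage markers 5 were higher and 1, *Mrc1*, was lower, at -4.08. Fibroblast markers averaged -1.46 to -1.18 over the culture arrays and -2.51 to -2.07 over the sorted arrays. Sertoli cell markers were mostly lower in culture, as *Ltb* was, with 4 of 6 tested called lower and 1 higher by limma and a median of -1.48. Among them *Clu* differed by -4.23, *Rhox5* by -2.33 and *Cldn11*, measured on 1 of 4 culture arrays, by -2.45. *Sox9* instead had higher means in culture, -2.37 with FGF5 and -3.11 without, against -4.56 in sorted WT and -4.98 in sorted *Fgf5*-/- cells. Of 13 markers of undifferentiated spermatogonia tested, 2 were higher in culture and 6 lower by limma, with 5 at least 2-fold lower and 0 at least 2-fold higher. Over all tested probes 67.6% were called, with 10.5% at least 2-fold lower and 24.3% at least 2-fold higher. The part of other cells in these differences was not tested.

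The signal of *Ltb* over the 10 arrays was compared with that of 15527 named genes. By Pearson's r over the 10 arrays the 5 closest were *Mrc1* at 0.995, *Etv4* at 0.993, *Dusp6* at 0.991, *Tmem255a* at 0.986 and *Nefm* at 0.985. *Etv4*, an ETS transcription factor, had group means of 2.89 with FGF5, -0.35 without, 4.36 in sorted WT and 4.22 in sorted *Fgf5*-/- cells. *Dusp6*, a phosphatase of ERK kinases, had means of 3.16, -1.43, 4.64 and 4.36 in that order.

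These genes were chosen for their likeness to *Ltb* over all 10 arrays, so a shared order of the groups follows from the choice. *Nefm*, a neurofilament gene, had means of 0.55, -2.74, 2.64 and 2.45. *Tmem255a*, which encodes a membrane protein, had means of -3.95, -6.37, -2.50 and -2.87, and *Mrc1* had -3.09, -7.06, -0.85 and -1.15, both at background without FGF5, so that their r rests partly on background signals. The correlations rest on the distance between the groups, since the arrays of a group share culture or sort, slide and scan. Spearman's rho for the 5 genes was 0.721 to 0.830. Between the genotypes these genes differed by -0.37 to -0.13, with limma adjusted p of 0.729 to 0.779.

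**Figure D5:**
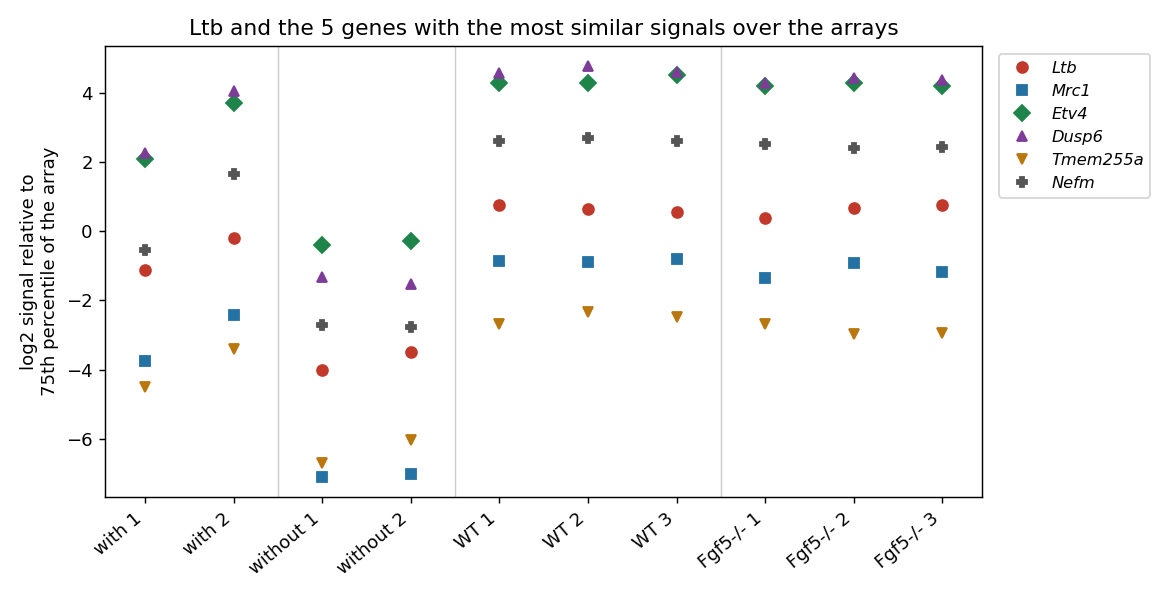
Log2 signal, with each array's 75th percentile subtracted, for *Ltb* and the 5 genes most like it by Pearson's r, on each of the 10 arrays in their 4 groups. In all 6 genes the 2 cultures without FGF5 are the lowest arrays, and the second FGF5 culture is above the first.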

How the data were processed

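Single-color (Cy3) arrays were read as deposited. Per the file headers, Agilent Feature Extraction 10.7.1.1 (10.7.3.1 in the submitters' processing notes) gave each spot a background-subtracted intensity, in which dim spots can hold a surrogate value, and flags for background and outliers. The authors' own table holds log2 values that differed from the log2 of these intensities by 1 constant per array.

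Flagged spots (117 to 205 of 59305 non-control spots per array) were left out and intensities were taken to log2 (floor 1). The 75th percentile of each array's remaining non-control spots was subtracted, and spots of a probe were averaged. The files of the sorted samples hold no gene names, which were matched through probe names. The test took probes that all arrays of some group showed well above background. limma 3.58.1 in R 4.3.3 (lmFit, eBayes, two-sided, Benjamini-Hochberg over all tested probes, 0.05) was run on the 6 sorted arrays and, for cultured against sorted cells, on all 10. The scripts were tested on simulated data. A group in which a probe was at background on every array gives only a bound: the brighter mean over the mean of, per dim array, the higher of the probe's own signal and the lowest signal well above background ("at least N-fold"). Pathway and marker lists were read at the brightest probe of each gene, and the text names the genes called and the 3 largest differences in each direction per list, at most 12 genes per comparison, and the 5 genes with the highest Pearson r to *Ltb*. Markers, neighbors and *Fgf5* are named beside the results they touch. The values of 1 lymphocyte marker are not reported here. Members and lists were chosen with earlier results of these data known. For arrays, the number of samples limits the precision. Alternatives were normexp (offset 50), quantile normalization, another percentile base, the authors' table, other background filters, an intensity trend, the replicate number as a block and leaving out each array.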

Additional observations from a re-analysis of the deposited data

How the results depend on the processing

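*Ltb* remained the 1 probe at least 2-fold higher with FGF5 without overlap under all 12 alternatives, at 2.09 (normexp) to 3.55, and leaving out an array gave 2.61 to 3.55. *Ltb* was picked from this contrast, so these values are a description only. The other background filters could not move its difference, since its probe was measured on every array. Nor could the replicate block, since each replicate number occurs in both conditions. The count of calls between the genotypes was 0 under all 15 alternatives. The difference of *Ltb* there changed sign, always close to 0: it was 0.002 when the percentile came from measured probes only, 0.004 without the first WT array and 0.06 without the first *Fgf5*-/- array, in a range of -0.13 to 0.06 on leaving out an array. Between cultured and sorted cells the count of 2-fold calls besides *Ltb*, 0 as reported, became 2 (*Ltbr* at 1.1 and *Lta* at 1.08) with the percentile over measured probes, 1 (*Lta* at 1.08) with FGF5-treated cultures against sorted WT only, and 0 to 1 on leaving out an array: 1 (*Ltbr*) without the first FGF5 culture or without the first culture without FGF5, and 1 (*Lta*) without the second *Fgf5*-/- array. Both genes lie just under 2-fold. With the replicate number as a block, the count in culture stayed at 1 and that between the genotypes at 0, and the same-numbered cultures differed in *Ltb* by 2.87 and 3.29; whether equal numbers mark shared experiments is not stated. Same-numbered cultures correlated at 0.989 and 0.986, against 0.982 within each condition, and their deviations at 0.636, a value that 2 samples per group make the same for both pairs. Same-numbered sorted samples did not deviate together (correlations of deviations from the group means -0.417 to -0.144). Over all probes, normexp gave 113 probes 2-fold apart in culture against 394, dropping the filter gave 1911, requiring every array above background gave 186, and leaving out an array gave 956 to 1733. Between the genotypes leaving out an array gave 0 to 6 calls against 0. Between the materials normexp gave 6052 calls and requiring every array above background 6868, against 12466. A flag counted from any spot of a probe, chosen after seeing the data, changed no count of member calls. *Tnf*, *Tnfsf14* and *Tnfrsf1b* were at background, so no change in them was detectable on these arrays.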
